A study of Mus musculus with 35 samples.

Results

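In lineage-negative bone marrow progenitors, 232 genomic regions carried an H3K27ac peak in both Npm1c and both DM libraries, in neither wild-type (WT) library, and in at most 1 of the 2 Flt3-ITD libraries. They were taken from 48396 regions made by merging the H3K27ac peaks of 10 libraries, of which 29508 had no WT progenitor peak. The regions were thus selected on acetylation in the 8 progenitor libraries, which is described below without a test. H3K4me1 and H3K4me3 were not used in the choice, and a neutrophil peak was neither asked for nor excluded. Neutrophil H3K27ac peaks were among those merged, however, and could set the edges of a region.

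The cells were hematopoietic stem and progenitor cells (HSPC) that remained after depletion of lineage-positive cells from the marrow of C57BL/6 mice, and neutrophils (Neu) isolated from marrow with a kit. The HSPC groups were WT, Npm1c, Flt3-ITD and DM; the neutrophils were WT. The labels leave DM unexplained, and it is taken as Npm1c and Flt3-ITD combined. Every mark was profiled in 2 biological replicates of each group, by the series' own account. Age, sex, the way the alleles were made and activated, and whether animals were pooled are not stated in the labels.

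H3K27ac marks active promoters and enhancers, H3K4me1 marks enhancers and promoter flanks whether or not they are active, and H3K4me3 is the usual mark of promoters. NPM1c is the cytoplasmic mutant form of nucleophosmin, a frequent lesion of acute myeloid leukaemia in which HOXA genes stay expressed. FLT3-ITD is an internal duplication that makes the FLT3 receptor tyrosine kinase signal without its ligand, and the 2 lesions often occur together in patients.

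Some of these regions cover annotated transcription start sites. Windows of 300 bases, from 250 before to 50 after a start, shared a base with 49 of the 224 regions on chromosomes with such windows (21.9%), beside 22.5% of all merged regions and 6.4% of those without a WT peak. The table of windows has 17492 of 21887 protein-coding genes, so each of these shares is a lower bound. The windows printed lie wholly within a region and were those with the most H3K27ac: first 4 where H3K4me3 covered the region in all 10 libraries, then 2 where it was seen in none. A further 5 of the 49 regions had H3K4me3 in 1 to 9 libraries and are not printed. Sequences are from RefSeq, build GRCm38.p6 (the assembly of mm10), 5′ to 3′ on the strand of the gene, and capitals mark matches to the motifs named after them.
Il18 and Bco2 start on opposite strands within 1 region. Il18 encodes an inflammatory cytokine (chr9:50554450-50554749, plus strand), and Bco2 a carotenoid-cleaving enzyme (chr9:50555089-50555388, minus strand).
Il18: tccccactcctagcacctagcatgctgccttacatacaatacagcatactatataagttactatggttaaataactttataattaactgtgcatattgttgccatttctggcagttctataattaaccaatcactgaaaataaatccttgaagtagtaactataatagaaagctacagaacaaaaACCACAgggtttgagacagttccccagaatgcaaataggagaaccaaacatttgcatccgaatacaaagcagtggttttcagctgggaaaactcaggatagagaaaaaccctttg
Bco2: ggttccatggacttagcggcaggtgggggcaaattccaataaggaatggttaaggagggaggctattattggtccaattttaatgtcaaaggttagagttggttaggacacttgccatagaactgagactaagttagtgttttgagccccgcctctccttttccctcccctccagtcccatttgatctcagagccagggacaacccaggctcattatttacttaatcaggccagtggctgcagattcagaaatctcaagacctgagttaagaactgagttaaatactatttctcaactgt
Naglu encodes a lysosomal enzyme that degrades heparan sulfate (chr11:101069844-101070143, plus strand), and Ikbke the kinase IKKε of the interferon and NF-κB pathways (chr1:131279514-131279813, minus strand).
Naglu: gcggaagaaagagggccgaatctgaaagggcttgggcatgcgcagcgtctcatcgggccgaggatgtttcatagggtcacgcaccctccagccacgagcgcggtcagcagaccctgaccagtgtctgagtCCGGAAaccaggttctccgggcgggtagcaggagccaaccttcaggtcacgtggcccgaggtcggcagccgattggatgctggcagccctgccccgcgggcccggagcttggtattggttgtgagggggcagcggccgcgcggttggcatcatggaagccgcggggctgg
Ikbke: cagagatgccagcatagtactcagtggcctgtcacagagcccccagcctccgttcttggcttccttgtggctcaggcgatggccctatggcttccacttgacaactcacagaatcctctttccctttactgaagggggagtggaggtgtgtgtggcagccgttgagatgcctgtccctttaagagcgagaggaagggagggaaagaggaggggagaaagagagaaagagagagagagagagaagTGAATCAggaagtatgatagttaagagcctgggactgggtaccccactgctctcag
Frrs1 encodes a ferric reductase (chr3:116859317-116859616, plus strand), and Garnl3 a protein with a Rap GTPase-activating domain (chr2:33131387-33131686, minus strand). Both windows lay in regions without H3K4me3.
Frrs1: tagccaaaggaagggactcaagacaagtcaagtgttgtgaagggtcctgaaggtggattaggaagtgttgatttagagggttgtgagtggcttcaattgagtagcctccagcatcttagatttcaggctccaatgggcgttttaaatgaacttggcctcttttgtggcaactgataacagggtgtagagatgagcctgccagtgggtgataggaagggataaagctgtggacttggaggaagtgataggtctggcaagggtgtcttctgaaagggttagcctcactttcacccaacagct
Garnl3: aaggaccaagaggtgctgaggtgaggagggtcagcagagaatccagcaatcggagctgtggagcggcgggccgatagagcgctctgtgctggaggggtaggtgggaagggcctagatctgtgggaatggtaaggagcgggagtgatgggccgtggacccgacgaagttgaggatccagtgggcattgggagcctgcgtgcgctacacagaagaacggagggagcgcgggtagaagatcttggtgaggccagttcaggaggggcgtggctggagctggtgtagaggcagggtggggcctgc

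The start sites were not of 1 base composition. Among the 6 printed windows the GC content ran from 36.7% at Il18 to 66.3% at Naglu, and the number of CG dinucleotides from 1 at Il18 and at Frrs1 to 26 at Naglu. Over the 55 windows that shared a base with a region the median was 60.3% GC and 15 CG dinucleotides, beside 52.7% and 7 in all 32851 windows of the table. The 55 windows were of 50 genes, so some genes were counted more than once. Only 19 lay wholly within a region, and others shared as little as 1 base with it. In the 43 windows of regions with H3K4me3 in all 10 libraries the median was 15 CG dinucleotides, and in the 7 with none it was 20. Of the short motifs searched on both strands, the ETS letters CCGGAA were in 10 of the 55 windows (18.2%; 14.9% of all windows) and the RUNX letters TGTGGT in 6 (10.9%; 16.8%). The AP-1 letters TGANTCA were in 3 (5.5%; 7.8%), the C/EBP letters TTGCNNAA in 2 (3.6%; 10.8%), the GATA letters AGATAA in 1 (1.8%; 11.2%) and the HOX-MEIS letters TGATTNAT in 0 (0.0%; 3.2%). The single capital stretches above are a RUNX match at Il18, on the opposite strand of the sequence shown, an ETS match at Naglu and an AP-1 match at Ikbke. They are matches of letters, not mapped binding sites.

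Before the values, the lists themselves differed. The H3K27ac lists held from 21709 to 30150 peaks, covering 15.2 and 15.3 Mb in WT, 23.5 and 23.9 Mb in Npm1c, 16.6 and 18.4 Mb in Flt3-ITD and 20.3 and 13.5 Mb in DM. Read depth is unknown, so fewer calls and less acetylation cannot be told apart. Markers of several other cell types differed between the groups. Peaks at 7 erythroid marker genes summed to 20.1 and 18.9 kb in WT, 32.6 and 24.1 kb in Npm1c, 13.6 and 18.2 kb in Flt3-ITD and 3.1 and 2.3 kb in DM, where Gata1 and Alas2 were among those with none; Hbb-b1 had none in any library. At 5 monocyte and dendritic markers the sums were 1.7 and 1.0 kb in WT, 2.5 and 4.1 kb in Npm1c, 8.1 and 6.6 kb in Flt3-ITD and 21.1 and 12.5 kb in DM. Of these, Ccr2 had no peak in either WT library or in DM replicate 2. Neutrophil markers summed to 28.1 and 30.1 kb in neutrophils and at most 2.4 kb in any HSPC library, with S100a8, S100a9, Ltf and Camp at 0 in all 8. HSPC markers had peaks at 5 of 5 genes in WT, Npm1c and Flt3-ITD and at 4 of 5 in DM, where Gata2 had none. Their sums were 6.9 and 6.8 kb in WT, 22.7 and 24.9 kb in Npm1c, 12.5 and 15.4 kb in Flt3-ITD and 15.3 and 8.9 kb in DM. Megakaryocyte markers (5 genes) summed to 6.3 and 7.2 kb in WT, 13.1 and 9.5 kb in Npm1c, 3.0 and 5.5 kb in Flt3-ITD and 2.5 and 1.8 kb in DM. For mast cell and basophil markers (5 genes) the sums were 0.27 and 0.54 kb in WT and from 1.5 to 4.2 kb in the mutant libraries. They were 6.9 and 7.8 kb in neutrophils, and Cpa3, Fcer1a and Mcpt8 were at 0 in all. Outside Npm1c, where Ms4a2 also had a peak, each of these sums was of Hdc alone. For T and NK markers (3 genes) the sums were 1.6 and 1.2 kb in WT and from 1.6 to 3.4 kb in the mutants, with Cd3e at 0 in all. B cell markers (4 genes) summed to 1.5 and 1.3 kb in WT and 2.1 and 2.3 kb in Npm1c. They summed to 1.6 and 1.4 kb in Flt3-ITD and 3.8 and 1.4 kb in DM. The part of cell composition in the results below was not tested.

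How many regions met the rule depended on single libraries. By the rule, leaving out a Flt3-ITD library can only lower the count, and leaving out another HSPC library can only raise it. Without Npm1c replicate 1 the count was 847, without DM replicate 2 it was 607, without Flt3-ITD replicate 1 it was 134, and without Flt3-ITD replicate 2 it was 153; leaving out any other HSPC library gave 274 to 289. Of 657 regions that failed only because 1 Npm1c library lacked the peak, 615 had it in replicate 2 and 42 in replicate 1. Of 432 that failed only for 1 DM library, 375 had it in replicate 1 and 57 in replicate 2. A further 91 regions failed because 1 WT library held a peak. Of the 800 regions gained in both Npm1c and DM, 568 were also acetylated in both Flt3-ITD libraries, 177 in 1 and 55 in neither, so the 232 are mostly regions on which the Flt3-ITD libraries differed: 79 had the peak in replicate 1 and 98 in replicate 2. Gains numbered 3826 for Npm1c (7.91% of all regions), 3647 for DM (7.54%) and 2142 for Flt3-ITD (4.43%), and all share the WT libraries.

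**Figure D1:**
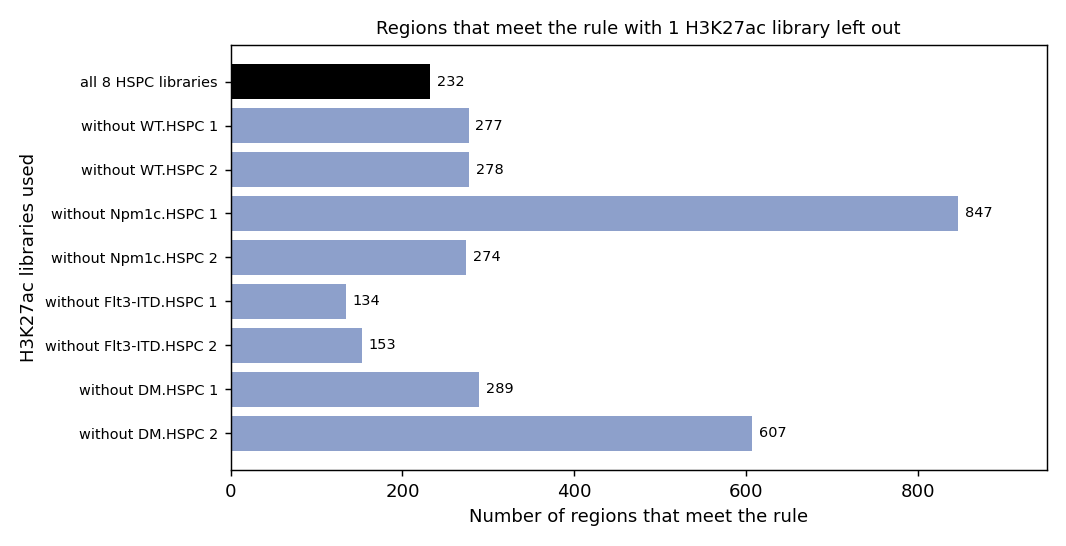
Number of regions that meet the rule (x axis) with all 8 HSPC H3K27ac libraries (black, 232) and with each library left out in turn (blue). The bars without Npm1c replicate 1 (847) and without DM replicate 2 (607) are the longest.

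The merged width of the 232 regions had a median of 633.5 bp (306 to 2239 bp), above that of all regions (535.0 bp) and of those without a WT peak (367.0 bp), and the regions summed to 164.215 kb. The median width under H3K27ac peaks was 292 and 443 bp in the 2 Npm1c libraries and 470 and 316 bp in the 2 DM libraries. Npm1c replicate 2 was wider than replicate 1 at 174 regions, and DM replicate 1 wider than replicate 2 at 180. Both DM values exceeded both Npm1c values at 55 regions (23.7%; 7.11% of all merged regions), both Npm1c values exceeded both DM values at 32 (13.8%; 27.9%), and the values overlapped at 145. All merged regions include those with no peak in one or both genotypes, which the rule leaves out, so nothing is read from these shares. The nearest WT peak lay within 500 bp of 40 regions (17.2%), with a median distance of 9.0 kb over all 232.

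**Figure D2:**
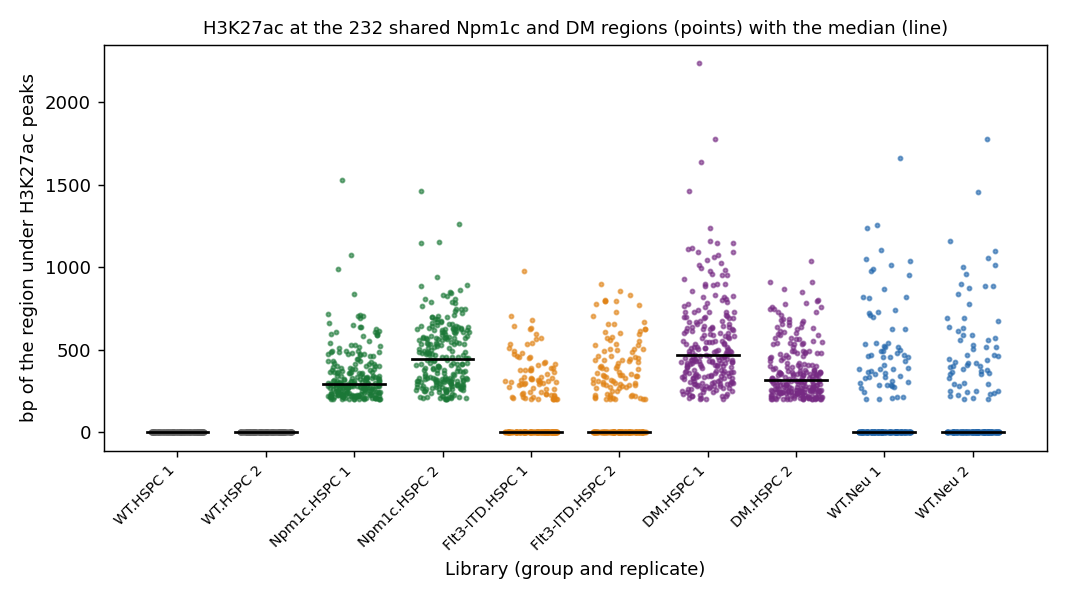
Base pairs of each of the 232 regions under H3K27ac peaks (y axis) in each of the 10 libraries (x axis, group and replicate number); each point is 1 region and lines are medians. The 4 Npm1c and DM libraries have medians from 292 to 470 bp, and in each Flt3-ITD and neutrophil library the median is 0.

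The region with the most H3K27ac lay 50019 bp from the nearest protein-coding span, that of the predicted gene Gm38821 (chr6:51171269-51172937). It had 1529 and 1464 bp under peaks in Npm1c, 1161 and 494 bp in DM, and none in WT, Flt3-ITD or neutrophils. Next came a region 4246 bp from Trio, a guanine nucleotide exchange factor (chr15:27724164-27726402). Acetylation there was widest in DM (2239 and 799 bp), with 324 and 633 bp in Npm1c and 678 bp in Flt3-ITD replicate 1. The region in Ahdc1, a gene for an AT-hook protein, was the third, with 423 and 1262 bp in Npm1c, 999 and 1041 bp in DM and 859 bp in Flt3-ITD replicate 2. The region in Lsp1, a leukocyte actin-binding protein (chr7:142460835-142462955), had 265 and 699 bp in Npm1c, 1642 and 681 bp in DM, 659 bp in Flt3-ITD replicate 2, and 1664 and 1778 bp in neutrophils. Both DM values were above both Npm1c values at Trio, and the values of the 2 genotypes overlapped at Ahdc1 and Lsp1.

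Among the 20 regions with the largest mean, 12 touched a gene span and 8 lay between genes. The Il18 and Bco2 region (chr9:50553813-50555588) had 205 and 397 bp in Npm1c, 1776 and 729 bp in DM, 209 bp in Flt3-ITD replicate 2 and 204 and 571 bp in neutrophils. The region in Limk1, the kinase that phosphorylates cofilin (chr5:134675753-134677070), had 640 and 1149 bp in Npm1c, 692 and 779 bp in DM and none elsewhere. The region in Maml3, a Notch coactivator (chr3:52000297-52001343), had 598 and 811 bp in Npm1c, 1012 and 551 bp in DM and 490 bp in Flt3-ITD replicate 1. A region 16380 bp from Fosb, an AP-1 subunit (chr7:19326499-19327679), was the reverse of Il18, with 1072 and 1151 bp in Npm1c, 248 and 243 bp in DM and 729 bp in Flt3-ITD replicate 2. Both DM values were above both Npm1c values at 5 of the 20, and both Npm1c values above both DM values at 3.

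Other regions of the 20 lay far from protein-coding genes or deep within them. One had Runx1 as its nearest protein-coding gene, 326659 bp away (chr16:93152734-93153630), with 392 and 809 bp in Npm1c and 897 and 602 bp in DM, and none in Flt3-ITD. Slc8a1, the sodium-calcium exchanger, had 372 and 784 bp in Npm1c and 898 and 914 bp in DM and 530 bp in Flt3-ITD replicate 2 (chr17:81669286-81670199). Tmem217, a membrane protein gene, had 708 and 689 bp in Npm1c and 932 and 466 bp in DM, with no other peak (chr17:29523264-29524204). The rest lay at or near Filip1, Nedd4l, Naglu, Ctnna3, Ramp3, Cdhr5, Zfp658, Ahi1 and Frrs1. In all, 4 of the 20 had no peak in either Flt3-ITD library and 16 had one in 1 of them.

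**Figure D3:**
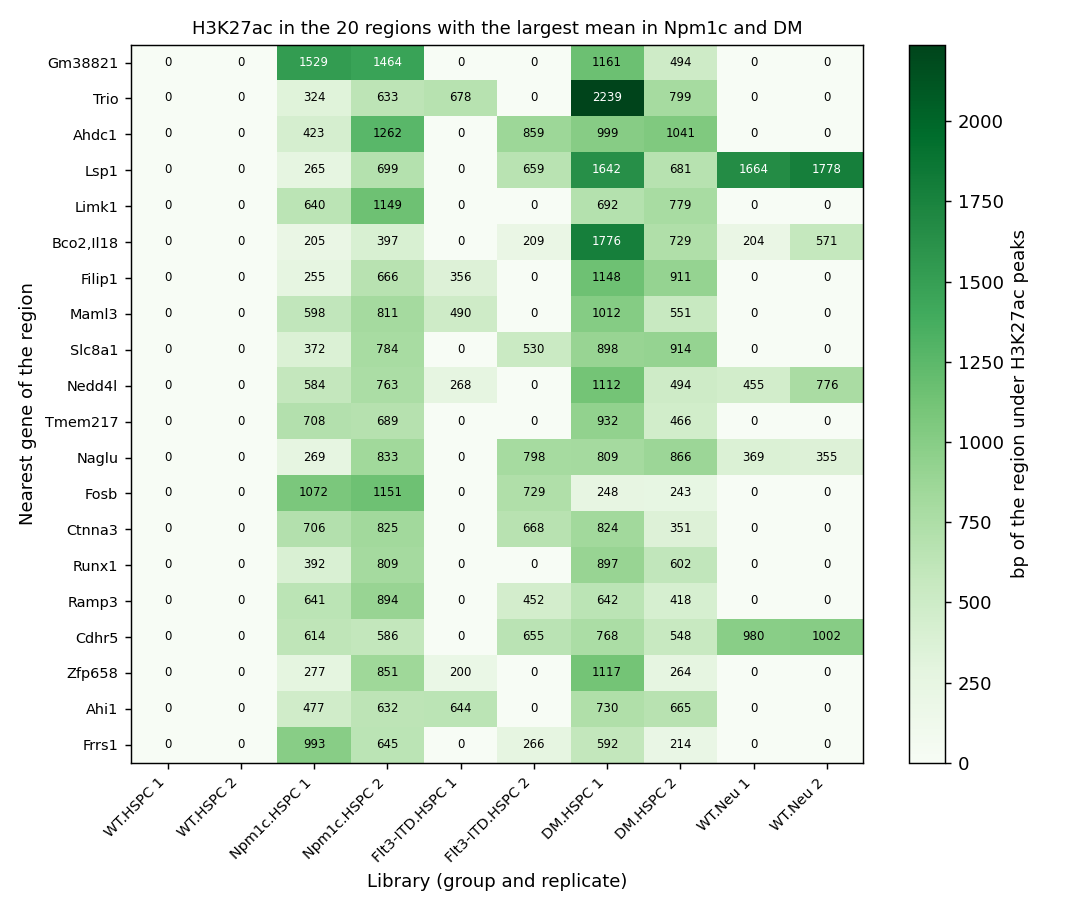
Base pairs under H3K27ac peaks (colour and printed value) in the 20 regions with the largest mean over the Npm1c and DM libraries (rows, by nearest gene) and the 10 libraries (columns). The WT columns are 0 by the rule, 4 rows are 0 in both Flt3-ITD libraries, and 5 rows, Lsp1, Bco2 with Il18, Nedd4l, Naglu and Cdhr5, have peaks in both neutrophil libraries.

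The blood-lineage and leukaemia lists were then read for genes with a region. Of 282 listed genes, 6 (2.13%) had a region in the gene span or within 10 kb of it, beside 245 of 21887 protein-coding genes (1.12%). No gene of the stem and progenitor, primary granule, neutrophil, monocyte, dendritic, erythroid, megakaryocyte, mast cell, B-lymphoid, T and NK, immediate early, housekeeping, other-tissue or edited-locus lists had one. Those lists hold from 2 to 30 genes, too few for the share of all genes to give a whole gene in any of them.

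In the leukaemia-associated list 3 of 25 genes (12.0%) had a region, and in the list of STAT5 and MAPK feedback genes 1 of 22 (4.55%). Dot1l, the H3K79 methyltransferase, had a region 2199 bp outside its span (chr10:80752272-80752901) with 414 and 307 bp in Npm1c, 630 and 273 bp in DM and none in any other library. Cdk6, a cell-cycle kinase, had an intragenic region with 519 and 200 bp in Npm1c, 711 and 631 bp in DM and 282 bp in Flt3-ITD replicate 2 (chr5:3504195-3504905). Ccnd3, cyclin D3, had 660 and 488 bp in Npm1c, 494 and 344 bp in DM, 317 bp in Flt3-ITD replicate 1 and 406 and 402 bp in neutrophils (chr17:47508055-47508714). The region within 10 kb of Nfix, a nuclear factor I gene, lay 420 bp from Trmt1 (chr8:84700229-84700751), with 221 and 276 bp in Npm1c, 487 and 361 bp in DM and 389 bp in Flt3-ITD replicate 1. Over all protein-coding genes, only Elf2, Jag2, Rassf2 and Tnip3 had more than 1 region within 10 kb of the gene span, each 2. At any distance, Epcam, Gm38821, Hdac4, Litaf and Ramp3 were each also the nearest gene of 2 regions.

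Most of the regions already carried K4 methylation in WT cells. H3K4me1 overlapped 172 of 232 in both WT libraries (74.1%, 95% Wilson interval 68.1 to 79.3), beside 70.7% of all regions and 64.2% of those without a WT H3K27ac peak. H3K4me3 overlapped 138 in both WT libraries (59.5%, 53.1 to 65.6), beside 47.1% and 28.1%. The intervals cover counting error over regions only, and a wider region can meet a peak more easily. Both marks were in both WT libraries at 104 regions, H3K4me1 alone at 55 and H3K4me3 alone at 12. At 12 regions (5.2%) neither mark was seen in either WT library. Those 12 included the regions of Tmem217 and Cdk6 and one 4706 bp from Ifnar2, a subunit of the type I interferon receptor.

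The mutants and neutrophils had shares of the same order. H3K4me1 was present in both libraries at 69.8% of the regions in Npm1c, 72.4% in Flt3-ITD, 72.0% in DM and 68.5% in neutrophils. H3K4me3 was present at 63.8% in Npm1c, 66.4% in Flt3-ITD, 72.4% in DM and 64.7% in neutrophils; over all regions the shares were from 48.9% to 53.1%. H3K4me3 was in both Npm1c and both DM libraries at 141 regions (60.8%, 54.4 to 66.8), beside 41.4% of all regions. The same share was 66.4% of the 568 regions acetylated in all 3 mutants, 47.1% of the 690 gained in Flt3-ITD and DM without both Npm1c libraries, and 316 of the 1666 gained in Npm1c with no DM or Flt3-ITD peak. H3K4me3 was present in all 10 libraries at 116 of the 232 regions, beside 36.4% of all regions, and in none at 25 (10.8%), beside 20.9%.

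**Figure D4:**
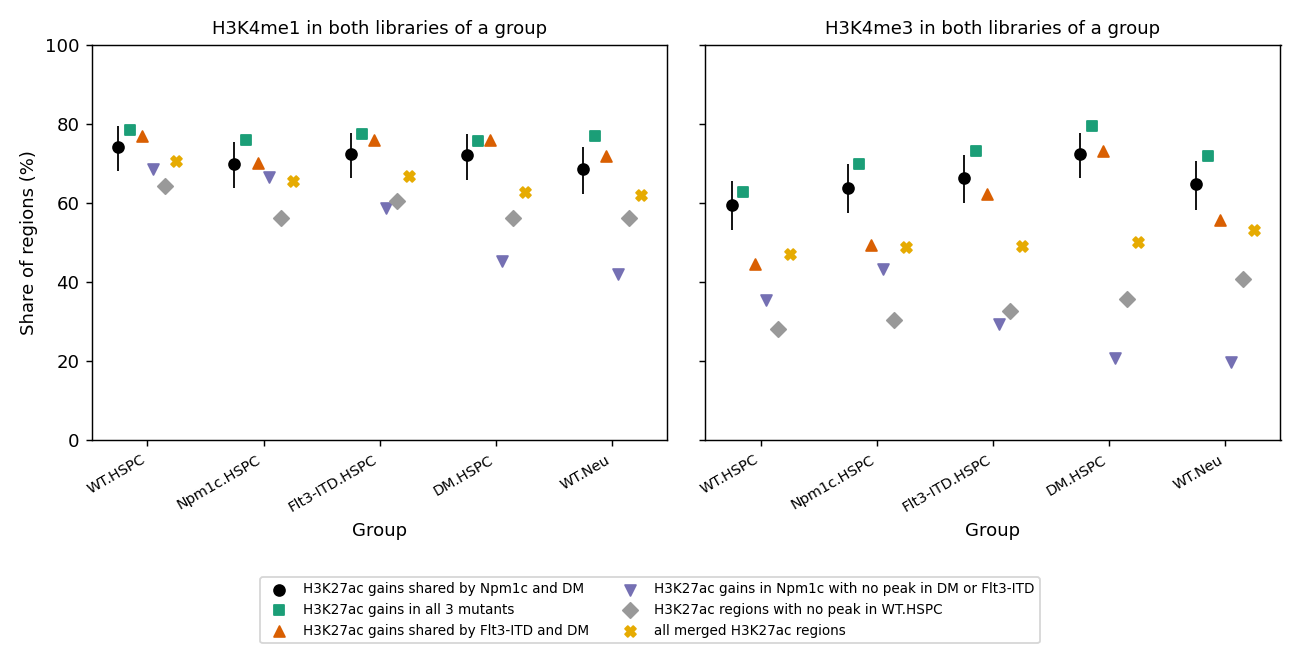
Share of regions (y axis, %) with H3K4me1 (left) or H3K4me3 (right) in both libraries of each group (x axis), for the 232 regions (black, with 95% Wilson intervals), 3 like sets, regions without a WT H3K27ac peak and all merged regions. The black points for H3K4me3 run from 59.5% in WT to 72.4% in DM and lie above the points of all regions in each group.

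H3K4me3 was also seen away from the annotated starts and gene ends used here. Of the 232 regions, 156 (67.2%) lay over 1 kb from every start of the window table and from both ends of every protein-coding gene span, beside 66.0% of all merged regions. Span ends were used because the window table lacks the starts of some genes. A start inside a gene span that the table lacks would still be counted as distant. Of those 156, H3K4me3 was in both WT libraries at 82 (52.6%, 44.8 to 60.2), beside 31.9% of all merged regions so placed, and in both DM libraries at 109 (69.9%, 62.3 to 76.5), beside 36.1%. Among them, the Slc8a1 region was covered over all 914 bp in all 10 libraries. Of the 49 regions at start windows, 37 had H3K4me3 in all 10 libraries and 7 in none. The last met start windows of Frrs1, Garnl3, Myl6b, Ro60, Acly, Elf4, an ETS factor, and Arid5a, an RNA-binding protein. H3K4me3 was counted within the region only. The starts of Elf4, Arid5a, Acly and Ro60 lay outside their regions, 76, 135, 127 and 45 bp away, so the count does not cover those starts.

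The change of H3K4me3 between genotypes was tested with limma on log2(bp under peaks + 500) in every merged region widened by 500 bp on each side. In DM, 14 of 209 regions tested rose (6.70%; 5.17% of all 39622) and 0 fell (4.02% of all), at a Benjamini-Hochberg threshold of 0.05. In Flt3-ITD 6 rose (2.87%; 2.47%) and 0 fell (0.651%), and in Npm1c 3 rose (1.44%; 1.26%) and 0 fell (0.505%). The rises were thus near the background in each genotype. At an unadjusted p under 0.05 the limma fit had 27 regions up and 10 down in DM (17.7% in all; 18.8% of all regions), 13 and 7 in Flt3-ITD (9.57%; 8.35%), and 4 and 4 in Npm1c (3.83%; 5.79%). Other settings gave falls in DM. Windows of 2000 bp gave 15 rises and 3 falls (8.18% called, beside 8.99% of all regions). A floor on the spread between libraries gave 18 and 2 (9.57%, beside 12.5%). Robust moderation gave 14 and 1 (7.18%, beside 9.16%), and libraries centred on their median 14 and 1 (7.18%, beside 8.85%). In Flt3-ITD, windows of 2000 bp gave 7 rises and 1 fall (3.64%, beside 3.08%). By the presence rule alone, 21 regions gained H3K4me3 in both DM libraries (9.1%; 6.44% of all regions) and 3 lost it (1.3%; 5.24%). The median log2 difference was 0 in each genotype. Without the test, both DM libraries lay above both WT libraries at 38 regions (18.2%; 15.4% of all) and below at 19 (9.09%; 13.5%). The calls moved with single libraries, and so did the share of all regions called. For DM there were 18 rises and 4 falls without DM replicate 1 (10.5%; 10.3% of all regions), 17 and 4 without DM replicate 2, and 20 and 1 without WT replicate 2. For Flt3-ITD there were 14 and 1 without WT replicate 2 (7.18%; 5.39%), 11 and 2 without Flt3-ITD replicate 1 (6.22%; 6.13%) and 7 and 4 without replicate 2 (5.26%; 7.2%); without WT replicate 1 there were 9 and 0. For Npm1c there were 6 and 0 without WT replicate 1 (2.87%; 3.56%), 11 and 0 without WT replicate 2 (5.26%; 4.09%), 5 and 4 without Npm1c replicate 1 (4.31%; 3.65%) and 5 and 1 without replicate 2 (2.87%; 4.03%).

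In most of the calls a whole H3K4me3 peak was present in both mutant libraries and absent from both WT libraries. The peaks were called at a fixed width of 1000 bp, so 17 of the 23 calls over the 3 mutants had the same log2 difference of 1.58. Of 39622 regions, 15041 had no spread between the libraries of any group, and the p of such a call says only that 1 peak was seen in 2 libraries and not in the 2 others. For these regions the counts of bp are given in place of the p. All values that follow are bp of the widened region under H3K4me3 peaks. A value that is not a whole number of peaks depends on where a peak lay in the window. For such values a shifted peak and a changed amount of the mark cannot be told apart. In 12 of the 15 regions called in any mutant both WT libraries had 0 bp, and in 9 of the 15 both neutrophil libraries were above 0.

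The region 1331 bp from Dnmt1, the maintenance DNA methyltransferase, was the only one called in all 3 mutants (chr9:20961220-20962200). It had 0 bp in both WT libraries and 1000 bp in each of the other 8 libraries. Tmem217 was called in Npm1c and DM, with 1000 bp in each of those 4 libraries and 0 bp in the other 6, the same pattern as its acetylation. Ttll5, a tubulin polyglutamylase gene, was called in Npm1c alone (chr12:85973328-85973823), with 1000 bp in both Npm1c libraries and 0 bp in the other 8. Whether these differences differed between the mutants was not tested.

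Regions of 5 genes were called in both DM and Flt3-ITD and had 0 bp in both Npm1c libraries. One lay 32364 bp from Ccr2, the chemokine receptor of inflammatory monocytes (chr9:124068248-124069553), with 1000 bp in each Flt3-ITD, DM and neutrophil library. Its H3K27ac was 588 and 567 bp in Npm1c, 630 bp in Flt3-ITD replicate 1, 981 and 231 bp in DM, and 1238 and 1097 bp in neutrophils. One lay 132020 bp from Bcl2l11, which encodes the pro-apoptotic protein BIM (chr2:128294568-128295643), with 1000 bp in the 4 Flt3-ITD and DM libraries and 0 bp in neutrophils. The others were Sgf29, the subunit of the SAGA complex that reads H3K4me3, Senp6, a SUMO protease, and M1ap, a gene of male meiosis. At all 5, H3K27ac in Npm1c was thus present without an H3K4me3 peak.

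In DM alone 7 regions were called. Those in Nedd4l, an E3 ubiquitin ligase gene, 6231 bp from Ccdc130 and 248813 bp from Kcnrg had 1000 bp in both DM libraries and 0 bp in the other 6 HSPC libraries, and the Kcnrg and Nedd4l regions had 1000 bp in both neutrophil libraries too. Near Tgs1, the cap trimethylguanosine synthase, the DM values were 399 and 443 bp, the neutrophil values 573 and 365 bp, and all other HSPC libraries had 0 bp (log2 difference 0.88, SE 0.10, limma adjusted p = 0.00261). Near Irf2bpl they were 794 and 810 bp against 476 and 489 bp in WT and 465 and 447 bp in Flt3-ITD (0.41, SE 0.04, limma adjusted p = 0.000892). Near Dot1l they were 745 and 947 bp against 550 and 526 bp in WT and 624 and 588 bp in Flt3-ITD (0.37, SE 0.07, limma adjusted p = 0.0369). In Ptk2, the focal adhesion kinase, they were 987 and 885 bp against 713 and 730 bp in WT (0.23, SE 0.04, limma adjusted p = 0.0194). The Flt3-ITD values at Ptk2, 864 and 922 bp, lay above both WT values and overlapped those of DM, although that difference was not called. The DM and WT values did not overlap at any of the 4.

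**Figure D5:**
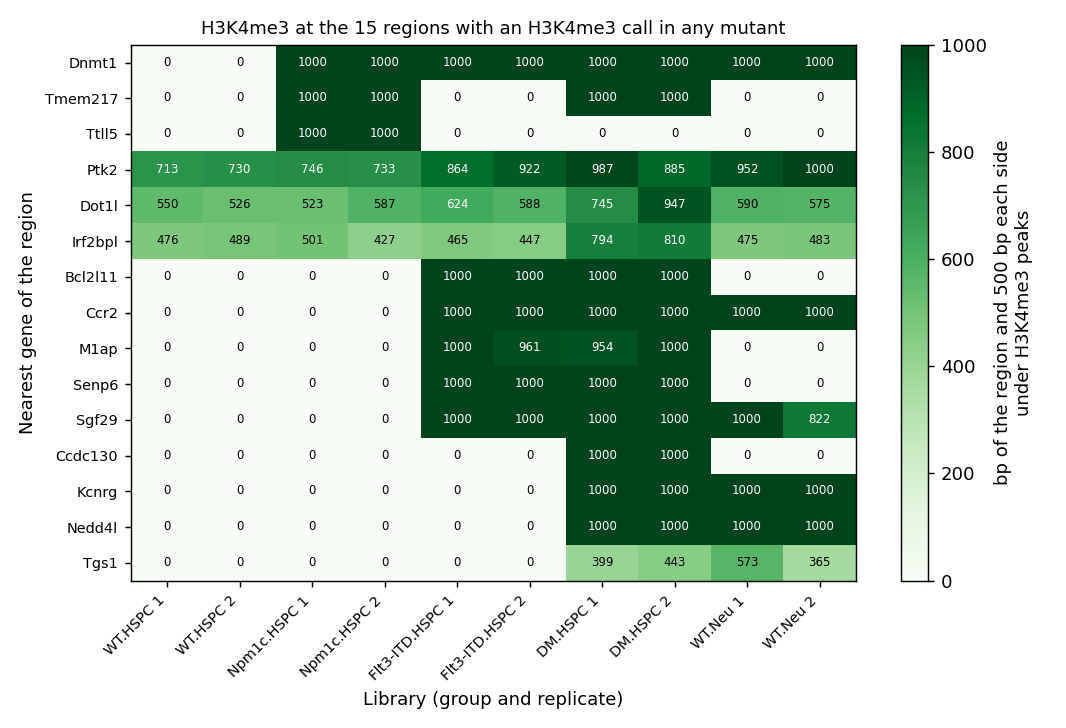
Base pairs under H3K4me3 peaks (colour and printed value) in the 15 regions with a call in any mutant (rows, by nearest gene), widened by 500 bp on each side, in the 10 libraries (columns). The WT columns are 0 at 12 of the 15 rows, and Dnmt1 is 1000 bp in all 8 other libraries.

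H3K4me1 calls were fewer. In DM, 2 of 232 regions rose (0.862%; 1.46% of all 47719) and 4 fell (1.72%; 6.22%). In Flt3-ITD, 1 rose (0.431%; 0.645%) and 3 fell (1.29%; 1.25%), and in Npm1c 1 rose (0.431%; 0.436%) and 1 fell (0.431%; 0.683%). The shares lay near the background or under it. By the presence rule alone, 7 regions lost H3K4me1 in both DM libraries (3.0%; 8.86% of all regions) and 5 gained it (2.2%; 2.77%). The limma counts moved with single libraries here too. For DM they were 11 without WT replicate 2 (4.74%; 8.21% of all regions), 17 without DM replicate 1 (7.33%; 8.73%) and 13 without DM replicate 2 (5.6%; 8.86%). For Flt3-ITD the count was 10 without WT replicate 2 (4.31%; 3.26%). For Npm1c it was 6 without WT replicate 2 (2.59%; 2.47%), 4 without Npm1c replicate 1 (1.72%; 2.41%) and 18 without Npm1c replicate 2 (7.76%; 8.2%).

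The regions where H3K4me1 fell are described first. That acetylation was gained there is given by the rule. H3K4me1 peaks too had a median width of 1000 bp in every library. A value that is not a whole number of peaks thus depends on where a peak lay in the window. For such values, here and below, a shifted peak and a changed amount of the mark cannot be told apart. Near Tmco1, an endoplasmic reticulum calcium channel gene (chr1:167339699-167340790), H3K4me1 in the widened region was 1183 and 1137 bp in WT and 383 and 353 bp in DM, with 1046 and 1209 bp in Flt3-ITD (log2 difference -0.94, SE 0.06, limma adjusted p = 0.00017). Near Cox4i1, a cytochrome c oxidase subunit (chr8:120685243-120686195), it was 1014 and 806 bp in WT, 1347 and 1000 bp in Npm1c, 285 and 319 bp in Flt3-ITD and 185 and 240 bp in DM (-0.98 in DM, SE 0.12, limma adjusted p = 0.00471). At Ephb6, a kinase-dead Eph receptor (chr6:41604940-41605838), it was 1405 and 1410 bp in WT, 756 and 797 bp in Flt3-ITD and 912 and 813 bp in DM (-0.49 in DM, SE 0.04, limma adjusted p = 0.000588). The WT and DM values were apart at all 3, and at Cox4i1 and Ephb6 the Flt3-ITD values lay beside those of DM.

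The remaining calls were each in 1 genotype. Ifi30, a lysosomal thiol reductase of antigen processing, had 1000 bp of H3K4me1 in each WT library and 143 and 0 bp in DM, with 463 and 1078 bp in Flt3-ITD (-1.40, SE 0.24, limma adjusted p = 0.0194). Filip1, a filamin-interacting protein, rose from 1000 and 1037 bp in WT to 1302 and 1384 bp in DM (0.28, SE 0.04, limma adjusted p = 0.00732), and Arhgef10l, a guanine nucleotide exchange factor, from 1000 and 988 bp to 1651 and 1436 bp (0.45, SE 0.08, limma adjusted p = 0.03). In Flt3-ITD, Araf, a RAF kinase gene, had 0 bp in both libraries against 971 and 973 bp in WT. Sh3pxd2a, which encodes a podosome scaffold, was the rise called in Flt3-ITD, from 1000 bp in both WT libraries to 1343 and 1419 bp (0.33, SE 0.02, limma adjusted p = 0.000867). With a floor on the spread between libraries 0 regions rose in Flt3-ITD, so that call was lost. In Npm1c, Rora, a nuclear receptor gene, had 0 bp against 939 and 1000 bp in WT, and Tmsb4x, which encodes the actin-binding thymosin β4, had 1000 bp in both libraries against 0 and 1 bp. With the same floor 0 regions fell in Npm1c, so the Rora call was lost. In DM the floor left 2 rises and 2 falls (1.72% called, beside 8.85% of all regions). Which of the DM regions above kept their call was not recorded. With replicate number added to the fit as a block, 0 regions rose in Npm1c, so the Tmsb4x call was lost. The block left 1 rise and 4 falls in DM (2.16%, beside 6.95%) and 1 and 2 in Flt3-ITD (1.29%, beside 1.54%).

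About 1 region in 4 was also acetylated in neutrophils, of which the rule asked nothing. Neutrophil peaks were among those merged, so the sets of all regions and of those without a WT peak can hold regions called in neutrophils alone. Both neutrophil libraries had a peak in 59 of 232 (25.4%, 20.3 to 31.4), beside 40.9% of all merged regions, 26.8% of those without a WT HSPC peak, 33.1% of the regions gained in all 3 mutants and 4.4% of those gained in Npm1c with no DM or Flt3-ITD peak. Both neutrophil values exceeded both Npm1c values at 28 regions (12.1%; 18.6% of all merged regions) and lay below both at 173 (74.6%; 34.9%). Against DM they were above at 18 (7.76%; 19.2%) and below at 176 (75.9%; 20.3%). The rule asks for peaks in Npm1c and DM, and 161 regions had no neutrophil peak, so nothing is read from these shares. Besides Lsp1 and the region near Ccr2, the widest were in Acoxl, a peroxisomal oxidase gene (1257 and 1159 bp in neutrophils, 202 and 212 bp in Npm1c, 1239 and 588 bp in DM), and 598 bp from Xdh, xanthine dehydrogenase (712 and 1455 bp in neutrophils, 334 and 538 bp in Npm1c, 742 and 689 bp in DM). The regions of Ikbke (1051 and 1056 bp in neutrophils) and Il17ra, an interleukin-17 receptor subunit (1015 and 1016 bp), followed. At Il17ra Npm1c had 200 and 312 bp and DM 1463 and 347 bp.

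Regions with and without neutrophil acetylation were set side by side. H3K4me3 was in both WT HSPC libraries at 57.6% of the 59 and at 59.6% of the 161 with no neutrophil peak. In neutrophils H3K4me3 was in both libraries at 78.0% of the 59 and 57.8% of the 161, and H3K4me1 at 57.6% and 73.9%. Start windows were met by 11 of 57 on chromosomes with start windows (19.3%) and 36 of 156 (23.1%). Of the 55 regions without any Flt3-ITD peak 25.5% were acetylated in both neutrophil libraries, and of the 177 with 1 such peak 25.4%. Start windows were met by 6 of 54 (11.1%) and 43 of 170 (25.3%). No test was made between these subsets.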

How the data were processed

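ChIP-seq peaks of H3K4me1, H3K4me3 and H3K27ac were read for 30 libraries, 2 per group and mark. Input samples were left out. The authors used build mm10 with Bowtie2 2.1.0, Picard, HOMER and MACS2, per the submitters' processing notes; no source here gives other versions or thresholds. The deposited files hold only peak chromosome, start and end, with no score or count, so depth is unknown and no interval for depth can be given.

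Peaks sharing at least 1 bp were merged (Python 3.11.15, numpy 2.4.6, pandas 2.3.3), and presence needed 1 bp. Shares carry Wilson intervals (scipy 1.17.1). limma 3.58.1 in R 4.3.3 fitted log2(bp + 500) over 5 groups with a trend, for regions covered in at least 2 of 10 libraries. Benjamini-Hochberg adjustment was over all regions. The fit was also run on simulated data in which every region had spread between libraries, which says nothing of regions without spread. Gene spans and starts are RefSeq GRCm38.p6; 8 regions on chromosome 18 have no start windows here. Regions named were the 20 with the largest mean H3K27ac, up to 4 per gene list, and up to 5 called per mark, comparison and direction whose 4 single-library differences share a sign, plus others chosen after their values were seen. Motifs were chosen with results known. The regions, gene lists and tests were chosen with earlier results of these data known. Same-numbered libraries deviated together little (correlations between groups from -0.18 to 0.08 for H3K4me1 and H3K4me3). H3K27ac was not checked in this way. Where nothing pairs the libraries, p-values measure the spread between 2 libraries a group. Alternatives were merging gaps, overlap minima, list lengths, windows, pseudocounts, filters, centring, a replicate block, robust moderation, a spread floor and leaving out each library. Figures used matplotlib 3.10.9. One region found through the gene lists is not reported here.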

Additional observations from a re-analysis of the deposited data

Results flagged for a closer look

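Only 46 regions, chosen by rank, gene list or call, were read for mutants that lay on opposite sides of WT. At 6 of them both libraries of one mutant lay above both WT libraries and both libraries of another lay below. The share over all merged regions was not counted, and the difference between the mutants was not tested. Some values were close, such as 919 bp in 1 DM library and 916 bp in 1 WT library at M1ap. All values are bp of the widened region under peaks, and differences are of mean log2(bp + 500). The limit on shifted peaks given above holds for these values too. For H3K4me1, the Araf region had 971 and 973 bp in WT, 1000 and 992 bp in Npm1c, 0 and 0 bp in Flt3-ITD and 949 and 882 bp in DM, so Npm1c was above Flt3-ITD by 1.58 and above DM by 0.08. The M1ap region had 901 and 916 bp in WT, 0 and 880 bp in Npm1c, 974 and 1000 bp in Flt3-ITD and 919 and 937 bp in DM, a difference of -0.78 for Npm1c against DM and -0.84 against Flt3-ITD, which rests on Npm1c replicate 1. The Arhgef10l region had 1000 and 988 bp in WT, 980 and 913 bp in Flt3-ITD and 1651 and 1436 bp in DM, and DM was above Flt3-ITD by 0.5. The Sh3pxd2a region had 1000 bp in both WT libraries, 1343 and 1419 bp in Flt3-ITD and 999 and 978 bp in DM, a difference of -0.34 for DM against Flt3-ITD. The Kcnrg region had 1051 and 1001 bp in WT, 1099 and 1058 bp in Npm1c and 1000 bp in both DM libraries, and Npm1c was above DM by 0.07. For H3K4me3, the Irf2bpl region had 476 and 489 bp in WT, 465 and 447 bp in Flt3-ITD and 794 and 810 bp in DM, and DM was above Flt3-ITD by 0.45.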

How the results depend on the processing

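Of 119 alternative values, 87 stayed near the value reported. The number of regions fell from 232 to 81 with equal list lengths (21709 widest peaks per library), was 180 with peaks up to 500 bp apart merged, and ran from 134 to 847 with 1 H3K27ac library left out. The share with H3K4me1 in both WT libraries was 91.1% with the wider merging, 66.8% with a minimum of 200 bp and 67.9% with equal lists, and from 70.1% to 83.6% with 1 library left out. The share with H3K4me3 in both Npm1c and both DM libraries was 75.0% with the wider merging and from 51.5% to 67.3% with 1 library left out, and that with neutrophil H3K27ac from 22.9% to 32.1%. Leaving out 1 library gave 2 to 18 H3K4me1 calls in Npm1c, 6 to 17 in DM and 5 to 10 in Flt3-ITD, and 6 to 11, 15 to 22 and 9 to 15 H3K4me3 calls. Of these H3K4me3 calls up to 4 in each genotype were falls, where all libraries together gave 0. With a replicate block there was 1 H3K4me1 call in Npm1c (0.431%, beside 0.845% of all regions). No other count of calls moved by over 1.5 times under the block. With the spread floor H3K4me1 calls were 1 in Npm1c (0.431%, beside 0.304%) and 2 in Flt3-ITD (0.862%, beside 1.33%). With windows of 2000 bp they were 7 in Flt3-ITD (3.02%, beside 2.56%). Merging peaks that only touch gave 231 regions. The spread floor, the touching merge and leaving out H3K4me1, H3K4me3 and neutrophil libraries for the shares were chosen after seeing the data. Peak files without depth cannot tell a missed peak from an absent one, and a left-out library leaves 1 in its group, assumed to vary like the others.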
